A study of Rattus norvegicus with 6 samples.

Results

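The gene set described here has 36 members, from glucose uptake to pyruvate entry, chosen by symbol. A member was read from probe sets annotated to its symbol alone, taking the brightest by mean log2 signal over the 6 arrays. By this rule 34 of the 36 members had a probe set, among 14218 genes with one in the whole series. Dlat, which encodes the E2 subunit of pyruvate dehydrogenase, matched no probe set in the annotation used here, and the probe set of Pkm, which encodes muscle-type pyruvate kinase, was shared with a pseudogene. Gapdh was represented by Affymetrix control probe sets only, which were left out of the test. Pfkfb1 and Pdk4 lay below a filter of 11.2 on the geometric mean signal of the 6 arrays, so that 31 members were tested, among 10143 genes tested in all.

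Glycolysis turns glucose into pyruvate in the cytosol, and most of its steps can be run by more than a single isoform encoded by separate genes. Glucose enters through transporters of the Slc2a family and is trapped by hexokinase, and phosphofructokinase commits it to breakdown under the control of the bifunctional PFKFB enzymes. Pyruvate is then reduced to lactate by lactate dehydrogenase and exported by monocarboxylate transporters, or it enters mitochondria through the pyruvate carrier and is oxidised by the pyruvate dehydrogenase complex. Kinases of the Pdk family switch that complex off and Pdp phosphatases switch it on. In many cell types hypoxia-inducible factors and MYC proteins raise transcription of genes of this pathway.

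The cells were GH4C1, a rat pituitary tumour line of somatolactotrope type grown in Ham's F10 medium with horse and fetal calf serum. In 3 cultures, each on 1 array, a lentiviral vector carried POU1F1(R271W), a dominant negative mutant of the factor that drives growth hormone and prolactin transcription, followed by an IRES and EGFP, and in 3 control cultures the vector carried EGFP alone. In both groups the PGK promoter drove the transgene, cells were incubated with virus for 16 h at a multiplicity of infection of 5, and RNA was taken after 4 days. The labels call the replicates biological. The p-values of single genes rest on the spread between these cultures, pooled in part over probe sets of like signal. The share of cells that carried a vector is not given in the sources used here.

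Prl, Gh1 and Pou1f1, which mark this cell type, had mean signals of 3175, 6338 and 1836 in R271W cells and 4332, 6443 and 2301 in control cells. Trhr, another gene of these cells, read 1807 in R271W cells and 2009 in control cells. Ghrhr and Drd2 were below the filter, which acts on the geometric mean over all arrays. Their arithmetic means were 15.0 and 15.5 in R271W cells and 11.1 and 2.28 in control cells. Of 14 markers of other pituitary, stromal, endothelial and immune cells, 13 had a probe set, and all but Dcn had group means between 1.24 and 29.3. The summed signal of these markers without Dcn was 121 to 138.0 on R271W arrays and 111 to 146 on control arrays. Dcn, which encodes decorin, fell to 1205 in R271W cells, against 2770.1 in control cells. Median signals over all probe sets were 25.5 to 27.0 on R271W arrays and 22.4 to 23.0 on control arrays. Hybridisation spikes read 0.23 higher on R271W arrays (log2), and beta-actin had a 3' to 5' signal ratio of 1.96 ± 0.099 in R271W cells and 1.82 ± 0.0076 in control cells (SD, n = 3 each), without overlap. The same ratio for GAPDH overlapped, and the part of these differences in the results was not tested.

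Of the 31 tested members, 3 rose and 8 fell in R271W cells at an adjusted p under 0.05. The genes that rose were Pfkm, Aldoc and Ldhb, and those that fell were Slc2a1, Hk2, Pfkp, Pfkfb3, Pgam1, Pdk1, Pdha1 and Slc16a1. Of these, Aldoc passed the filter only through its R271W arrays. The members called made up 35.5% of those tested. Over the series, 15.8% of 18625 tested probe sets were called, 8.57% as higher and 7.22% as lower, and with 1 probe set per gene 18.9% of 10143 genes were called, 9.87% as higher and 8.98% as lower. Bright probe sets were called more often, and 30.5% of the 4925 with a signal of at least 200 passed, 11.3% as higher and 19.2% as lower. Of the members at that brightness 7 of 20 were called, so the share of these bright members lay near that of bright probe sets. The called members Hk2, Pfkfb3, Aldoc and Ldhb lay below that brightness and were not compared with probe sets of like signal. Groups did not overlap for 15 of the 31 members, or 48.4%, against 37.7% of all genes tested and 49.8% of bright probe sets. The median log2 fold change was -0.073 over the members, 0.057 over all genes tested and -0.042 over bright probe sets. A bulk signal cannot tell apart fewer cells that express a gene and less RNA per cell.

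**Figure D1:**
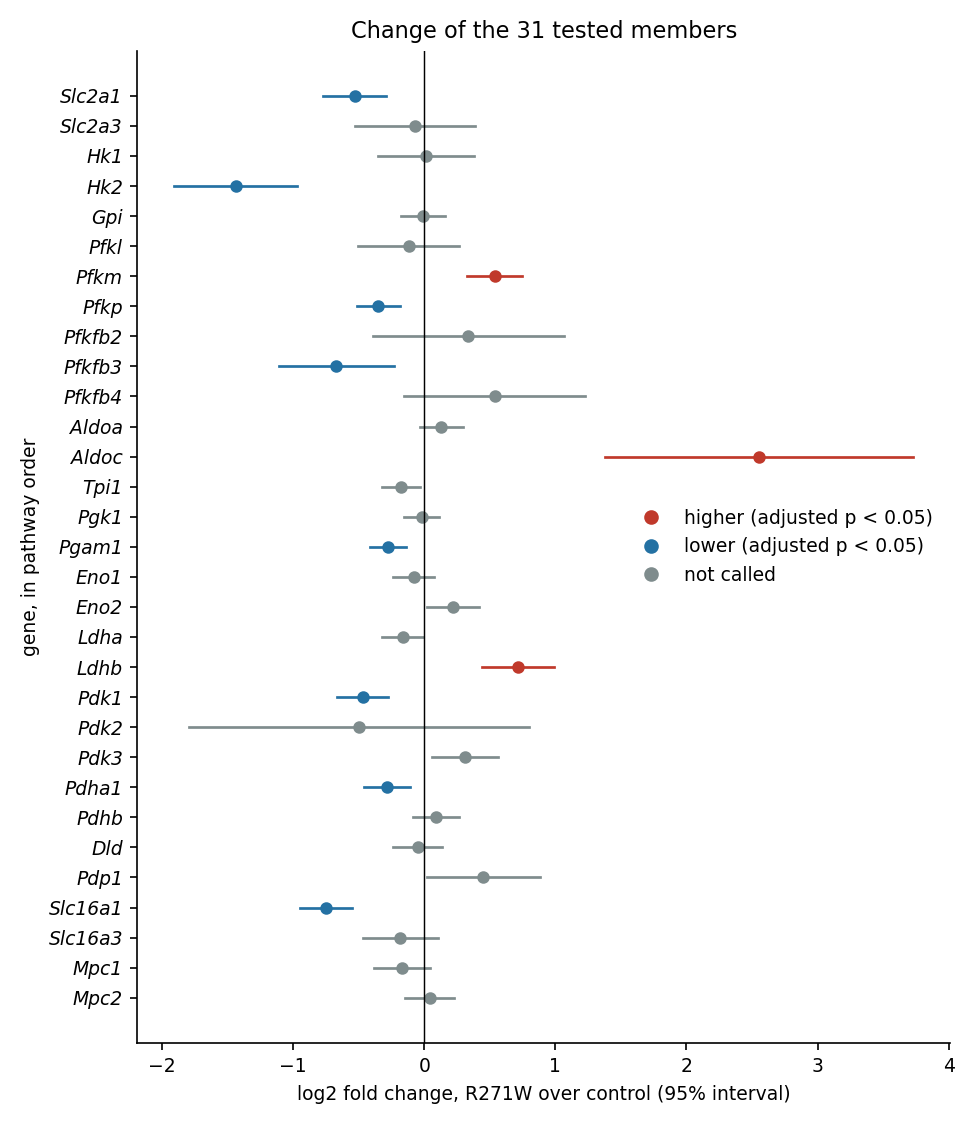
Log2 fold change of R271W over control for the 31 tested members in pathway order, with 95% limma intervals. Calls in both directions are spread along the pathway, from Slc2a1 and Hk2 (-0.53 and -1.44) to Slc16a1 (-0.75), with Pfkm (0.54), Aldoc (2.55) and Ldhb (0.72) on the other side of 0.

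Of the glucose transporter transcripts, that of the basal carrier fell. Slc2a1, which encodes GLUT1, the widely expressed glucose transporter, had signals of 223, 227 and 275 in R271W cells, against 373, 319.7 and 353 in control cells. All R271W arrays lay below all control arrays, and the log2 change was -0.53 (95% interval -0.77 to -0.30, adjusted p = 0.00492). Slc2a3, which encodes GLUT3, the high-affinity transporter of neurons, had signals of 82.2, 78.3 and 63.3 in R271W cells, against 83.0, 99.4 and 57.5 in control cells. Those arrays overlapped (log2 -0.073, interval -0.53 to 0.39, adjusted p = 0.862), and its dimmer probe set overlapped as well (log2 -0.44, interval -1.18 to 0.29, adjusted p = 0.428). Without the intensity trend in the test the adjusted p of Slc2a1 was 0.0717.

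The promoter of Slc2a1 is shown because its transcript stands at the entry of the pathway and fell. It is the 250 bases before the RefSeq start in GRCr8, chr5:138002272-138002521 on the plus strand, 5′ to 3′. Capitals here and in the other promoters mark matches on either strand to ACGTG or GCGTG, the cores of the hypoxia response element, to the E-box CACGTG, which contains ACGTG, to the POU1F1-type letters ATGAATA and ATGNATA, or to the octamer ATGCAAAT. In this promoter they mark 1 ACGTG and 3 GCGTG matches.
Slc2a1: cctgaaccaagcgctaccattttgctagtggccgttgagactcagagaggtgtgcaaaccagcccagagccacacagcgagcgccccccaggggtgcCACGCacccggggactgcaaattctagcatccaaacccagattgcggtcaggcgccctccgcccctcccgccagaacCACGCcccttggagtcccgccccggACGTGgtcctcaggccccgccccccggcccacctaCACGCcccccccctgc

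Among hexokinases the inducible isoform fell. Hk2, which encodes the hexokinase typical of muscle, fat and many tumours, had signals of 45.7, 39.5 and 50.2 in R271W cells, against 154, 87.4 and 135 in control cells. The groups were well apart, with Hk2 2.71-fold lower in R271W cells (log2 -1.44, interval -1.91 to -0.97, adjusted p = 0.000565). Hk1, the isoform found in most tissues, had signals of 119, 132 and 137 in R271W cells, against 167, 101 and 126 in control cells. Its arrays overlapped, and the log2 change was 0.010 (interval -0.36 to 0.38, adjusted p = 0.976). The Affymetrix control probe sets annotated to Hk1 were dimmer and read -0.41, -0.32 and -0.21. The groups did not overlap on the first of these, and none passed when control probe sets were kept in the fit (adjusted p = 0.365, 0.591 and 0.874).

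Of the isoforms of phosphofructokinase, the main regulated step of glycolysis, Pfkm rose and Pfkp fell, while the Pfkl groups overlapped. Pfkm, which encodes the muscle-type subunit, had signals of 394, 344 and 352 in R271W cells, against 262, 239 and 249.6 in control cells. Every R271W array was above every control array, and the log2 change was 0.54 (interval 0.33 to 0.75, adjusted p = 0.00216). A second Pfkm probe set also rose, with signals of 249, 221 and 235 in R271W cells, against 153, 124 and 164 in control cells and no overlap (log2 0.68, interval 0.41 to 0.96, adjusted p = 0.00252). The remaining Pfkm probe set was dim, with signals of 8.84 to 20.9 in R271W cells and 16.5 to 27.4 in control cells, and overlapped (log2 -0.61, interval -1.63 to 0.42, adjusted p = 0.438). Averaged over these probe sets the Pfkm change was 0.20 and did not pass (adjusted p = 0.438).

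Pfkp, which encodes the platelet-type subunit, had signals of 614, 570.1 and 579.7 in R271W cells, against 722, 761 and 767 in control cells. The groups did not overlap, and the log2 change was -0.35 (interval -0.52 to -0.19, adjusted p = 0.00674). Without the intensity trend its adjusted p was 0.0859. Pfkl, the liver-type subunit, had signals of 152, 92.5 and 133 in R271W cells, against 135, 117 and 151 in control cells, with overlap (log2 -0.12, interval -0.50 to 0.27, adjusted p = 0.711). Gpi, the isomerase of the preceding step, had signals of 1068, 1023 and 1078 in R271W cells, against 1011, 1010.2 and 1175 in control cells, also with overlap (log2 -0.0091, interval -0.18 to 0.16, adjusted p = 0.953).

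The Pfkfb genes encode enzymes that make and remove an activator of phosphofructokinase, and 1 of the 3 tested fell. Pfkfb3, the isoform with the highest kinase over phosphatase activity, had signals of 96.9, 56.5 and 60.2 in R271W cells, against 101, 122 and 108 in control cells. R271W replicate 1 lay close to the lowest control, and the log2 change was -0.67 (interval -1.11 to -0.23, adjusted p = 0.0393). The call ended when any single array other than R271W replicate 1 was left out, with adjusted p values of 0.0674 to 0.14, and without the intensity trend (0.141). A dimmer Pfkfb3 probe set had signals of 13.9, 6.98 and 12.3 in R271W cells, against 23.7, 19.2 and 23.6 in control cells, without overlap and without passing (log2 -1.06, interval -2.13 to 0.014, adjusted p = 0.176).

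Pfkfb4, first described in testis, had signals of 40.1, 36.8 and 36.8 in R271W cells, against 39.2, 22.9 and 19.8 in control cells, with overlap (log2 0.54, interval -0.15 to 1.23, adjusted p = 0.293). Pfkfb2, the heart-type isoform, gave different readings by probe set. Its brightest one had signals of 45.4, 33.4 and 36.7 in R271W cells, against 45.0, 33.3 and 18.5 in control cells, with overlap (log2 0.34, interval -0.39 to 1.07, adjusted p = 0.562). Another Pfkfb2 probe set had signals of 47.5, 53.2 and 53.0 in R271W cells, against 20.1, 6.80 and 18.2 in control cells. That probe set passed as higher (log2 1.92, interval 1.03 to 2.81, adjusted p = 0.00646), while a further one overlapped (log2 0.15, interval -0.56 to 0.85, adjusted p = 0.815). Pfkfb1, the liver-type isoform, was below the filter, at 1.53 to 20.4 in R271W cells and 5.61 to 26.2 in control cells.

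**Figure D2:**
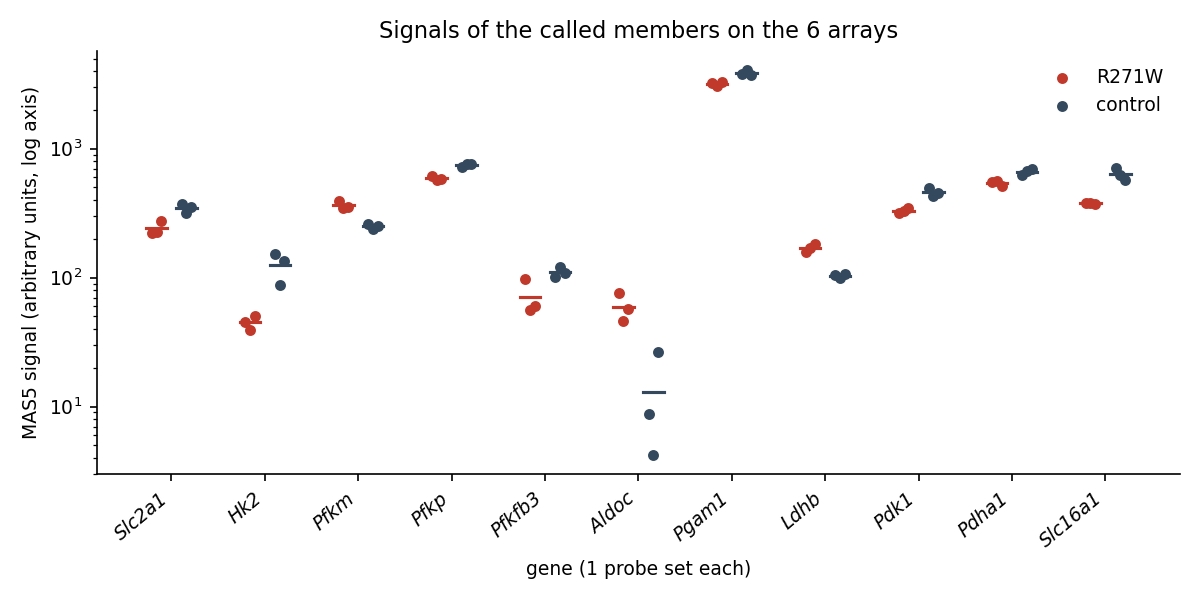
MAS5 signal on a log axis for the 11 called members, with 3 R271W arrays (left, red) and 3 control arrays (right, dark) per gene and bars at the mean. The groups do not overlap for any of them, and the narrowest gap is that of Pfkfb3 (96.9 against 101).

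Aldolase splits the phosphorylated sugar, and its brain-type gene rose. Aldoc had signals of 75.3, 45.9 and 56.7 in R271W cells, against 8.73, 4.21 and 26.3 in control cells. All R271W arrays were above the controls, whose signals were low and scattered, and the log2 change was 2.55 (interval 1.38 to 3.73, adjusted p = 0.00605). It was 2.11 with 3.72 added to every signal and 1.94 to 3.26 when single arrays were left out, and without the intensity trend its adjusted p was 0.0808. The control arrays as a group lay below the filter signal of 11.2, so Aldoc passed the filter only through its R271W arrays. Under the 60th percentile filter Aldoc was not tested. Aldoa, the muscle-type aldolase made by most cells, had signals of 3286, 2732 and 3124 in R271W cells, against 2658, 2952 and 2730.5 in control cells. Those arrays overlapped (log2 0.13, interval -0.037 to 0.30, adjusted p = 0.292), though under quantile normalization Aldoa passed at 0.22 (adjusted p = 0.0328).

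The Aldoc promoter is shown because this member had the largest fold change in the set. It covers chr10:63715294-63715543 in GRCr8 on the plus strand, with 1 ACGTG and 2 GCGTG matches in capitals.
Aldoc: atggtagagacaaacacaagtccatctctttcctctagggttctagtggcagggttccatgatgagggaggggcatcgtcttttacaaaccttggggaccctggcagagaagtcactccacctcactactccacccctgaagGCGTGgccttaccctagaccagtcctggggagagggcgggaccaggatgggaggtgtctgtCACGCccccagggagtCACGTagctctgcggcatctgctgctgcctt

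Of the enzymes that follow aldolase, Pgam1 fell on its single tested probe set. Pgam1, which encodes phosphoglycerate mutase, had signals of 3213, 3066 and 3282 in R271W cells, against 3783, 4074 and 3756 in control cells. The groups did not overlap, and the log2 change was -0.28 (interval -0.42 to -0.14, adjusted p = 0.0087). The Pgam1 call ended without control replicate 2 (adjusted p = 0.0582) and without the intensity trend (0.14). Tpi1, which encodes triose phosphate isomerase, had signals of 2747, 2446 and 2799.6 in R271W cells, against 3029, 3028 and 2964 in control cells. Its groups did not overlap either, but the change did not pass (log2 -0.18, interval -0.32 to -0.030, adjusted p = 0.0977). Tpi1 did pass as lower under median centring (adjusted p = 0.00252), under 75th percentile centring (0.0375) and without R271W replicate 3 (0.0345).

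Gapdh and Pgk1, which catalyse the steps to the first ATP, had intervals that spanned 0. The brightest Gapdh probe set had signals of 4419.9, 4203 and 5075 in R271W cells, against 4839, 4623 and 4432 in control cells, with overlap (log2 -0.024, interval -0.19 to 0.14, adjusted p = 0.87 with control probe sets kept in the fit). The other Gapdh probe sets read -0.040 and 0.0027, and a probe set shared with Gapdhl10 read -0.060 (adjusted p = 0.588). Pgk1 had signals of 4295, 4146 and 4409 in R271W cells, against 4299.6, 4548 and 4196 in control cells, with overlap (log2 -0.021, interval -0.15 to 0.11, adjusted p = 0.862). A second Pgk1 probe set fell, with signals of 2665, 2438 and 2509.5 in R271W cells, against 2827, 3195 and 2964 in control cells (log2 -0.24, interval -0.39 to -0.090, adjusted p = 0.0311), so the Pgk1 probe sets disagree.

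Enolase makes phosphoenolpyruvate, and neither of its tested isoforms passed. Eno1, the widespread isoform, had signals of 2823, 2733 and 3251 in R271W cells, against 3133, 3126 and 3028 in control cells, with overlap (log2 -0.080, interval -0.24 to 0.076, adjusted p = 0.511). Eno2, the isoform of neurons and endocrine cells, had signals of 476, 437 and 477 in R271W cells, against 391, 369 and 438 in control cells, also with overlap (log2 0.22, interval 0.018 to 0.42, adjusted p = 0.135). The probe set that Pkm shares with its pseudogene fell, with signals of 1488, 1305 and 1356 in R271W cells, against 1585, 1648 and 1722 in control cells (log2 -0.26, interval -0.41 to -0.10, adjusted p = 0.0286). That value cannot be assigned to Pkm alone.

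At lactate dehydrogenase the heart-type isoform rose. Ldhb, whose subunit is typical of tissues that oxidise lactate, had signals of 157, 170.0 and 183 in R271W cells, against 104, 98.9 and 107 in control cells. All R271W arrays were above all control arrays, and Ldhb was 1.64-fold higher in R271W cells (log2 0.72, interval 0.44 to 0.99, adjusted p = 0.00188). Ldha, whose subunit is typical of glycolytic tissues, had signals of 3105, 2817 and 3391 in R271W cells, against 3521, 3428 and 3455 in control cells. The Ldha groups did not overlap, though by a narrow margin, and the change did not pass (log2 -0.16, interval -0.32 to -0.0082, adjusted p = 0.148). Without R271W replicate 3 the adjusted p of Ldha was 0.0188.

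Both lactate dehydrogenase promoters are shown because the signal ratio of this isoform pair shifted towards Ldhb. The Ldha promoter covers chr1:106507842-106508091 on the plus strand of GRCr8 and the Ldhb promoter chr4:177177409-177177658 on the minus strand. The printed bases hold an E-box, a further ACGTG and a GCGTG for Ldha and a single GCGTG match for Ldhb, and the other 2 GCGTG matches of the Ldha window lie across or after the start, beyond the printed bases.
Ldha: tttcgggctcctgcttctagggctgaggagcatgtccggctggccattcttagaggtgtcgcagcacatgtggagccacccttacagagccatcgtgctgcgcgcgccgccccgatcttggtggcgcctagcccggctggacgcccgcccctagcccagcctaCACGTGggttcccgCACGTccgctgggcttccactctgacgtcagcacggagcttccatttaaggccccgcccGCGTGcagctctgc
Ldhb: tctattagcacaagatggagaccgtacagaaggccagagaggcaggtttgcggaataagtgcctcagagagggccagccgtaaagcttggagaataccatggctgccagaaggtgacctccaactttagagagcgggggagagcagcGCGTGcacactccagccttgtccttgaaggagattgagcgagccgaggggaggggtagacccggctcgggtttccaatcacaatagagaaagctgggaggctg

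Lactate and pyruvate cross the plasma membrane through monocarboxylate transporters. Slc16a1, which encodes MCT1, a widespread carrier for import and export, had signals of 381, 378 and 371 in R271W cells, against 706, 626 and 573 in control cells. The R271W arrays were close together and well below the controls, and Slc16a1 was 1.68-fold lower (log2 -0.75, interval -0.95 to -0.55, adjusted p = 0.000128). Averaged with its second probe set, whose signals were 1.43 to 9.09 in R271W cells and 3.17 to 16.0 in control cells, the change was -0.89 and did not pass (adjusted p = 0.133). Slc16a3, which encodes MCT4, the exporter of highly glycolytic cells, had signals of 393, 362 and 491 in R271W cells, against 529.7, 383 and 503 in control cells, with overlap (log2 -0.18, interval -0.47 to 0.10, adjusted p = 0.4).

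The Slc16a1 promoter is shown because, after Hk2 and Aldoc, it belongs to the called member with the next largest change. It covers chr2:194812410-194812659 in GRCr8 on the plus strand and holds an E-box and a GCGTG match, and a further ACGTG lies across or after the start, beyond the printed bases.
Slc16a1: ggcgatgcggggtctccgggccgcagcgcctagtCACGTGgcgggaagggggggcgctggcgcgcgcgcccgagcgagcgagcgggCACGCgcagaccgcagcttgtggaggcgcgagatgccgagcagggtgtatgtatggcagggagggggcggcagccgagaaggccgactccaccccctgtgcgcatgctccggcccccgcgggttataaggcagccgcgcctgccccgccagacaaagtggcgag

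Among genes of mitochondrial pyruvate entry, Pdk1 and Pdha1 fell. Pdk1, a kinase that inactivates pyruvate dehydrogenase, had signals of 319.8, 328 and 345 in R271W cells, against 496, 427 and 456 in control cells. The groups did not overlap, and the log2 change was -0.47 (interval -0.67 to -0.28, adjusted p = 0.00322). Without the intensity trend its adjusted p was 0.0585. Its second probe set also fell, with signals of 264, 199 and 196 in R271W cells, against 333, 278 and 328 in control cells (log2 -0.52, interval -0.79 to -0.24, adjusted p = 0.0145).

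Of the other kinases of the family, neither of those tested passed. Pdk3 had signals of 259, 255 and 208 in R271W cells, against 186, 187 and 207 in control cells. All R271W arrays were above the controls without passing (log2 0.31, interval 0.060 to 0.57, adjusted p = 0.0901), and so they were on its second probe set (log2 0.33, interval 0.020 to 0.63, adjusted p = 0.143). Without R271W replicate 3 the adjusted p of Pdk3 was 0.0293. Pdk2 was dim and scattered, with signals of 33.4, 22.1 and 5.76 in R271W cells, against 24.5, 33.7 and 14.5 in control cells (log2 -0.50, interval -1.80 to 0.80, adjusted p = 0.638). Pdk4, the isoform induced by fasting, was below the filter, at 2.28 to 20.2 in R271W cells and 2.77 to 14.6 in control cells.

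The Pdk1 promoter is shown because Pdk1 fell on both of its probe sets. It covers chr3:77113264-77113513 in GRCr8 on the plus strand and holds 2 GCGTG matches, and its ACGTG matches lie across or after the start, beyond the printed bases.
Pdk1: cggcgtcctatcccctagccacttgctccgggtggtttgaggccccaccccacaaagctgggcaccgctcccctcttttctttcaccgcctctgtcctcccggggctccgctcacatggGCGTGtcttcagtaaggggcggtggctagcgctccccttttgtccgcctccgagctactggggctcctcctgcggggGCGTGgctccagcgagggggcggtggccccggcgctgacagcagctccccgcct

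Within the pyruvate dehydrogenase complex, Pdha1, which encodes the E1 alpha subunit that the kinases phosphorylate, had signals of 549, 564 and 515 in R271W cells, against 621, 671 and 692 in control cells. The groups did not overlap, and the log2 change was -0.28 (interval -0.46 to -0.11, adjusted p = 0.0305). A second Pdha1 probe set had signals of 203, 186 and 185 in R271W cells, against 279, 281 and 259 in control cells, a larger fall (log2 -0.51, interval -0.73 to -0.29, adjusted p = 0.00414). The call of the brighter probe set depended on the settings, with an adjusted p of 0.096 under quantile normalization and 0.151 without the intensity trend. It also missed the threshold without R271W replicate 1, 2 or 3 or control replicate 2 or 3 (adjusted p 0.051 to 0.119).

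The other subunits of the complex and the carrier did not pass. Pdhb, the E1 beta subunit, read 671 ± 51.4 in R271W cells and 629.6 ± 10.8 in control cells (SD, n = 3 each, log2 0.090, interval -0.085 to 0.26, adjusted p = 0.512). Dld, the E3 subunit, read 501 ± 41.4 in R271W cells and 518 ± 8.61 in control cells (log2 -0.050, interval -0.24 to 0.14, adjusted p = 0.753). Pdp1, the phosphatase that reactivates the complex, had signals of 63.7, 61.9 and 58.6 in R271W cells, against 42.5, 45.9 and 46.4 in control cells. Its groups did not overlap, yet the change did not pass (log2 0.45, interval 0.021 to 0.88, adjusted p = 0.149). Mpc1 and Mpc2 encode the subunits of the mitochondrial pyruvate carrier. Mpc1 read 509.8 ± 56.8 in R271W cells and 571 ± 49.2 in control cells (log2 -0.17, interval -0.38 to 0.047, adjusted p = 0.291), and Mpc2 read 446 ± 28.8 in R271W cells and 433 ± 11.9 in control cells (log2 0.042, interval -0.14 to 0.23, adjusted p = 0.794).

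To compare isoforms, the log2 ratio of their signals was taken within each array, which removes any scaling factor of the array. A shift that depends on signal strength is not removed. The median log2 change was 0.069 over all tested probe sets and -0.042 over bright ones, and the part of this in the ratios was not tested. The ratio itself has no meaning between different probe sets, and only its change between groups was read. Of 21 possible pairs of isoforms in 9 steps, 15 had both members tested. The groups did not overlap for 10 of these, and the 95% interval of the change excluded 0 for 8. Both counts include the Aldoa to Aldoc pair, although Aldoc passed the filter only through its R271W arrays. The share without overlap among other gene pairs was not computed, and among all single genes tested it was 37.7%. Several pairs share a gene, so the pairs are not independent and their count is not read as a result about isoforms. With 3 arrays against 3 an exact permutation test cannot give a two-sided p under 0.1, which those 10 pairs reached, and adjusted over the 15 pairs their p was 0.15.

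The Hk1 to Hk2 ratio was higher in R271W cells by 1.45 (interval 1.05 to 1.85) on the log2 scale, or 2.73-fold. The Pfkm to Pfkp ratio was higher by 0.89 (interval 0.70 to 1.08), or 1.85-fold, and the Pfkl to Pfkm ratio changed by -0.66 (interval -1.19 to -0.12). With probe sets averaged per gene the Pfkm to Pfkp change was 0.56 and the Pfkl to Pfkm change -0.32. In signal, the balance lay more towards Hk1 and Pfkm in R271W cells than in control cells. The Ldha to Ldhb ratio changed by -0.88 (interval -1.10 to -0.66), a 1.84-fold shift towards Ldhb. Under quantile normalization the Ldha to Ldhb change was -0.72. The Pdk1 to Pdk3 ratio changed by -0.78 (interval -1.22 to -0.35), a shift towards Pdk3, although Pdk3 alone had not passed.

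Wider intervals, or ones that reached close to 0, were found for other pairs. The Aldoa to Aldoc ratio changed by -2.42 (interval -4.67 to -0.18), the Pfkfb3 to Pfkfb4 ratio by -1.21 (interval -2.34 to -0.076) and the Eno1 to Eno2 ratio by -0.30 (interval -0.59 to -0.0050). The first of these rests on low control signals of Aldoc, and its size is uncertain. For Pfkfb2 to Pfkfb3, at 1.01 (interval -0.14 to 2.15), and Slc16a1 to Slc16a3, at -0.57 (interval -1.14 to 0.0080), the groups did not overlap but the interval held 0. The pairs that overlapped were Slc2a1 to Slc2a3, at -0.46 (interval -1.41 to 0.49), Pfkl to Pfkp, at 0.23 (interval -0.37 to 0.83), and Pfkfb2 to Pfkfb4, at -0.20 (interval -0.77 to 0.37). The same held for Pdk1 to Pdk2, at 0.026 (interval -2.42 to 2.48), and Pdk2 to Pdk3, at -0.81 (interval -2.97 to 1.35). Of these overlapping pairs, 2 turned sign when probe sets were averaged, to 0.25 for Pfkfb2 to Pfkfb4 and -0.66 for Pdk1 to Pdk2. The fall of Slc2a1 is thus not shown to differ from the change of Slc2a3.

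**Figure D3:**
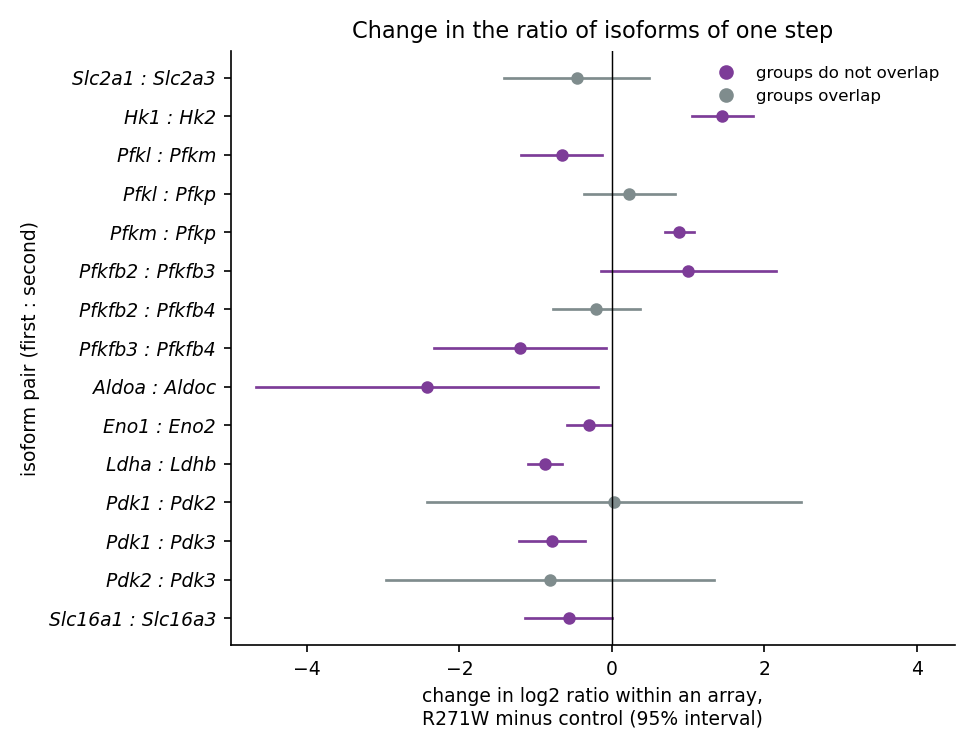
Change of the log2 ratio of isoforms within an array, R271W minus control, for 15 pairs with 95% intervals on 4 degrees of freedom. Purple points are the 10 pairs whose groups do not overlap. The intervals of Hk1 to Hk2 (1.05 to 1.85), Pfkm to Pfkp (0.70 to 1.08) and Ldha to Ldhb (-1.10 to -0.66) are narrow and do not reach 0.

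RefSeq promoters were found for 33 of the 36 members, 250 bases before to 50 after the start. ACGTG stood on either strand in 15 of the 33 and in 19.7% of all 27457 promoters, GCGTG in 17 of the 33 and in 31.1% of all, and the E-box CACGTG in 5 of the 33 and in 6.65% of all. Member promoters were richer in G and C (median 61.3%, against 52.3% of all), and the part of this in the counts was not tested. A match is a description and not a site. Of the 8 genes that fell, 5 held ACGTG and 6 held GCGTG, and of the 3 that rose, 2 held each. Hk2, with the largest fall, held none of these motifs in its window. The POU1F1-type letters ATGAATA and ATGNATA, found in 3.59% and 9.59% of all promoters, were in 0 of the 33, and the octamer ATGCAAAT, found in 1.64% of all, was in those of Pfkfb1 and Pfkfb4.

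Genes next to the pathway were read from 6 lists chosen with earlier results of these data known. Among 28 other glycolysis and pyruvate genes 12 were tested, of which 1 rose and 1 fell, with a median log2 change of 0.057. The share called was 16.7%, near the 18.9% of all genes tested. Slc2a13, whose product carries myo-inositol, rose, with 94.0 ± 11.5 in R271W cells and 32.6 ± 12.0 in control cells (log2 1.60, interval 1.01 to 2.18, adjusted p = 0.00143), while its second probe set was not called, though without overlap (log2 0.79, interval 0.060 to 1.52, adjusted p = 0.137). Pdp2, the other pyruvate dehydrogenase phosphatase, fell, with 43.7 ± 12.6 in R271W cells and 71.9 ± 6.13 in control cells (log2 -0.75, interval -1.26 to -0.25, adjusted p = 0.0439), and it fell on its second probe set as well, with 24.3 ± 2.45 in R271W cells and 76.2 ± 6.25 in control cells (log2 -1.65, interval -2.15 to -1.15, adjusted p = 0.000343). The call of the brighter Pdp2 probe set ended without any single array other than R271W replicate 1 (adjusted p 0.0768 to 0.136) and with no filter on signal (0.0658).

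In the pentose phosphate pathway, which branches off after hexokinase, 1 of 8 tested genes rose and 2 fell (median log2 change 0.060). The share called was 37.5%, against 18.9% of all genes tested and 30.5% of bright probe sets. The transcripts of transaldolase and transketolase, enzymes of the non-oxidative arm of this pathway, fell. Taldo1 read 664 ± 46.4 in R271W cells and 956 ± 33.6 in control cells (log2 -0.53, interval -0.70 to -0.36, adjusted p = 0.000553), and Tkt read 1108 ± 78.2 in R271W cells and 1444 ± 55.7 in control cells (log2 -0.38, interval -0.54 to -0.22, adjusted p = 0.00339). Rpe, an epimerase of the same arm, rose, with 335 ± 18.9 in R271W cells and 245 ± 21.5 in control cells (log2 0.45, interval 0.23 to 0.67, adjusted p = 0.00852), and its adjusted p under median centring was 0.134.

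Of 15 tested genes of gluconeogenesis and glycogen, 2 rose and 2 fell (median log2 change -0.070). The share called was 26.7%, against 18.9% of all genes tested and 30.5% of bright probe sets. Pgm2, a sugar phosphate mutase, rose, with 183 ± 2.43 in R271W cells and 107 ± 12.7 in control cells (log2 0.78, interval 0.50 to 1.06, adjusted p = 0.00122). Gbe1, the glycogen branching enzyme, rose too, with 484 ± 25.6 in R271W cells and 369.6 ± 14.8 in control cells (log2 0.39, interval 0.20 to 0.57, adjusted p = 0.00781), and its adjusted p under median centring was 0.174. Stbd1, which tethers glycogen to membranes, fell, with 65.1 ± 4.31 in R271W cells and 113 ± 12.5 in control cells (log2 -0.79, interval -1.14 to -0.44, adjusted p = 0.00454).

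The NADH shuttles carry reducing equivalents made by glycolysis into mitochondria, and 1 of their 9 tested genes rose and 3 fell (median log2 change -0.18). The share called was 44.4%, against 18.9% of all genes tested and 30.5% of bright probe sets. Gpd1, the cytosolic glycerol phosphate dehydrogenase, fell, with 132 ± 13.0 in R271W cells and 250.5 ± 8.50 in control cells (log2 -0.93, interval -1.19 to -0.68, adjusted p = 0.000155), and also on its second, dimmer probe set (log2 -2.44, interval -3.58 to -1.31, adjusted p = 0.00641). Got1, the cytosolic aspartate aminotransferase, fell, with 189 ± 12.2 in R271W cells and 285 ± 22.5 in control cells (log2 -0.59, interval -0.82 to -0.36, adjusted p = 0.00224). Mdh1, the cytosolic malate dehydrogenase, rose, with 2735 ± 168 in R271W cells and 2082 ± 95.9 in control cells (log2 0.39, interval 0.24 to 0.54, adjusted p = 0.00185), and so it did on its second probe set (log2 0.63, interval 0.46 to 0.80, adjusted p = 0.00018). Under median centring the adjusted p of the brighter Mdh1 probe set was 0.102.

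Among 17 tested regulators of glycolytic genes, 1 rose and 2 fell (median log2 change 0.097). The share called was 17.6%, near the 18.9% of all genes tested. Mycn, a MYC-family factor, fell, with 326 ± 30.9 in R271W cells and 988 ± 51.2 in control cells (log2 -1.60, interval -1.79 to -1.41, adjusted p = 2.50e-07). Egln1, a prolyl hydroxylase that marks hypoxia-inducible factors for removal, fell, with 255 ± 33.3 in R271W cells and 365 ± 33.9 in control cells (log2 -0.52, interval -0.77 to -0.28, adjusted p = 0.00674). Averaged with its second probe set, which was below the filter at 3.66 ± 2.65 in R271W cells and 1.60 ± 1.05 in control cells, Egln1 turned to 0.24 and did not pass (adjusted p = 0.757). Txnip, an arrestin that restrains glucose uptake, rose, with 211 ± 4.52 in R271W cells and 159 ± 26.9 in control cells (log2 0.43, interval 0.14 to 0.71, adjusted p = 0.0421). The Txnip call ended under each of the 3 other scalings and with the replicate block (adjusted p = 0.0579), and leaving out single arrays gave adjusted p values of 0.0234 to 0.168, with the call kept without control replicate 1 and lost without each other array.

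Of 17 tested genes on a list of hypoxia-responsive genes, which includes the members Slc2a1, Pfkfb4 and Pdk1, 3 rose and 7 fell (median log2 change -0.15). Those with the smallest p were the collagen prolyl hydroxylase genes P4ha2, with 189 ± 17.4 in R271W cells and 467 ± 18.3 in control cells (log2 -1.31, interval -1.53 to -1.09, adjusted p = 3.49e-06), and P4ha1, with 362 ± 32.0 in R271W cells and 549 ± 64.2 in control cells (log2 -0.60, interval -0.82 to -0.37, adjusted p = 0.00155), and the member Pdk1. On the second, dimmer P4ha2 probe set the groups overlapped and the change did not pass (log2 -1.29, interval -2.21 to -0.36, adjusted p = 0.0591). The calls of this list made up 58.8% of its tested genes, against 18.9% of all genes tested and 30.5% of bright probe sets. This list was chosen with earlier results of these data known and also counts Egln1 of the regulators, so its share is a description and not a test. The lowest group mean among its called genes was 189, of P4ha2 in R271W cells. Of the genes named from these lists, Pdp2, Tkt, Rpe, Gbe1, Mdh1, Egln1, Txnip and P4ha1 missed the threshold without the intensity trend (adjusted p 0.0584 to 0.145).

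**Figure D4:**
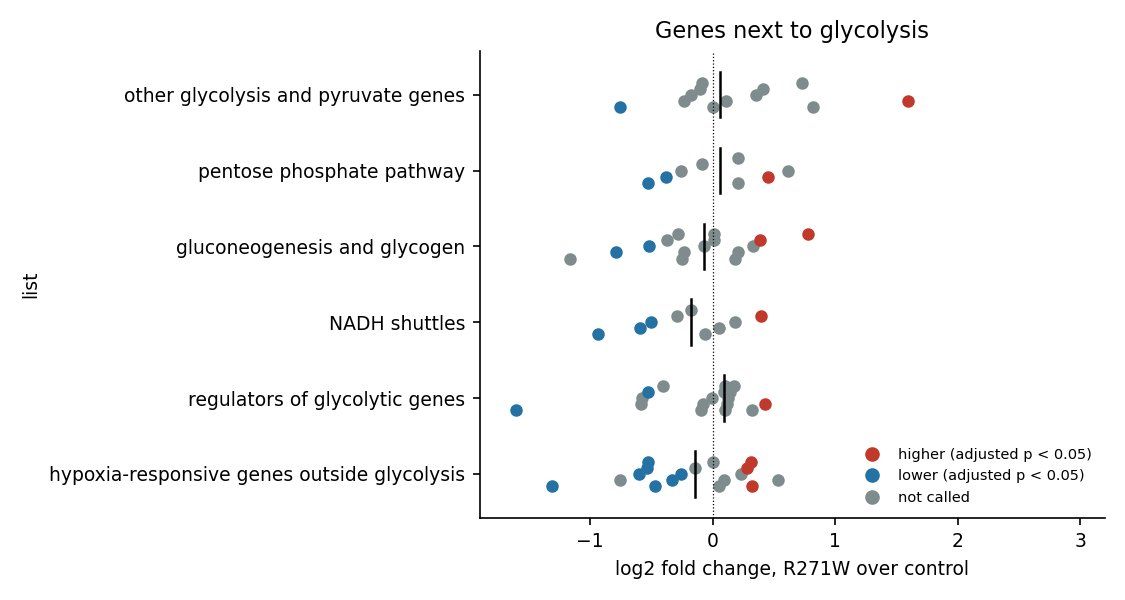
Log2 fold change of R271W over control for the tested genes of 6 lists beside glycolysis, with a bar at each list's median. Red and blue points are genes called higher and lower. The list medians lie between -0.18 and 0.10, and single genes reach from Mycn at -1.60 to Slc2a13 at 1.60.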

How the data were processed

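RNA from 6 GH4C1 cultures was hybridised to Affymetrix rat arrays, 3 R271W and 3 control, grouped by the sample labels. Each deposited intensity is a linear signal per probe set from MAS5, the tool named in the submitters' processing notes. The trimmed mean of every array, with 2% left out at each end, is 100, so the arrays had been scaled alike. No source used here gives detection calls or MAS5 settings. The number of arrays limits precision, as does brightness: replicate log2 signals had a median SD of 0.109 at signals of at least 200 and 0.285 below.

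Symbols came from a platform annotation table whose Entrez IDs were checked against RefSeq (GRCr8), which changed 0 of them. Of 31042 non-control probe sets, 20826 had 1 symbol, 436 several, and 9780 are unnamed here. Log2 signals were tested with limma 3.58.1 in R 4.3.3 (eBayes with an intensity trend, two-sided) on the 18625 non-control probe sets at or above the 40th percentile of mean log2 signal, with Benjamini-Hochberg adjustment over all of them and a threshold of 0.05. The test was also run on simulated data with independent noise for each probe set, which cannot check the effect of array scaling. Isoform ratios were compared by exact permutation tests in scipy 1.17.1. Promoters were RefSeq's. The members, lists and alternatives were chosen with earlier results of these data known, and no list was tested as a set. Every member was reported. From each other list, up to 3 called genes with the smallest p were named. A planned comparison of isoform proteins was not run. Alternatives were other scalings, filters, a floor or offset of 3.72, eBayes settings, array weights, a replicate block, averaged or single probe sets per gene, a fold of 1.5, leaving out each array and, added after the data were seen, keeping control probe sets. Same-numbered R271W and control arrays did not deviate together (correlations of -0.020 to 0.010), so numbers were not taken as pairs.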

Additional observations from a re-analysis of the deposited data

How the results depend on the processing

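Each called member kept its sign in all 208 alternative values, and 184 of these kept the call. Hk2 and Ldhb were the only members called under every alternative run. Against 3 members higher and 8 lower, 13 were lower under median centring, 3 with a fold of at least 1.5 and 2 without the intensity trend. Leaving out single arrays gave 3 to 4 higher and 5 to 8 lower, with 5 lower without control replicate 2. Median centring moved the median of all log2 changes by -0.20 and that of the members to -0.27. It also made Tpi1, Pgk1, Eno1, Ldha and Mpc1 pass as lower (adjusted p = 0.00252, 0.0405, 0.0279, 0.00531 and 0.0279). Over all probe sets, 1596 were higher and 1344 lower, against 730 and 3132 under median centring, 964 and 506 with a fold of at least 1.5 and 634 and 431 without the intensity trend. Of all calls 54.3% were higher, against 50%, 36.9% and 18.9% under quantile normalization, 75th percentile centring and median centring. Without single arrays there were 999 to 1350 higher, the fewest without R271W replicate 2, and 947 to 1330 lower. The median change of the members ran from -0.083 to -0.030 without single arrays.

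Among members, sign changes were seen in those that had not passed. Quantile normalization gave Hk1 -0.066, Gpi 0.11, Eno1 0.0017 and Dld 0.026. Median centring gave Hk1 -0.19, Aldoa -0.069, Pdhb -0.11 and Mpc2 -0.16, and 75th percentile centring gave Hk1 -0.073 and Mpc2 -0.041. Averaging probe sets gave Pgk1 0.43 and, outside the members, Egln1, which had passed as lower, 0.24. That Pgk1 average includes a probe set below the filter, at 2.19 to 9.90 in R271W cells and 0.543 to 11.1 in control cells (log2 1.54). Without single arrays the range was -0.16 to 0.20 for Hk1, -0.046 to 0.063 for Gpi, -0.27 to 0.088 for Pfkl, -0.046 to 0.012 for Pgk1, -0.29 to 0.10 for Slc2a3, -1.02 to 0.25 for Pdk2, -0.088 to 0.020 for Dld and -0.019 to 0.62 for Pfkfb2. The cause was not tested.

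The replicate block left 3 members higher and 6 lower, with Pfkfb3 (adjusted p = 0.0545) and Pdha1 (0.0648) no longer passing, and 13 isoform pairs with the same sign in every numbered pair. Isoform pairs counted as apart numbered 7 to 13 over the alternatives, against 10, and 10 to 12 without single arrays. The replicate block was counted by sign and not by overlap. Members tested also differed by filter, with 27 under the 60th percentile filter and 33 with no filter, so these counts may not be alike. Signals below about 200 scatter more, which limits Aldoc, Pdk2 and the Pfkfb genes. Slc2a3, Hk1, Hk2, Pfkl, Ldhb and Pdp1 also lay below that signal.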

Other observations

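Other genes of the lists beside glycolysis passed the test and are named here after their values were seen. Pck2, the mitochondrial phosphoenolpyruvate carboxykinase, read 282 ± 37.7 in R271W cells and 403 ± 47.2 in control cells (log2 -0.52, interval -0.77 to -0.27, adjusted p = 0.00818), while its dimmer probe set overlapped (log2 0.24, interval -0.069 to 0.55, adjusted p = 0.293). Slc25a13, a mitochondrial aspartate and glutamate carrier, read 166 ± 13.6 in R271W cells and 235 ± 21.8 in control cells (log2 -0.50, interval -0.76 to -0.25, adjusted p = 0.0101), and its dimmer probe set overlapped (log2 -0.18, interval -0.57 to 0.21, adjusted p = 0.567). The mitophagy receptor genes Bnip3 and Bnip3l went opposite ways, Bnip3 with 1534 ± 92.3 in R271W cells and 1833 ± 50.9 in control cells (log2 -0.26, interval -0.41 to -0.11, adjusted p = 0.0221) and Bnip3l with 603 ± 40.7 in R271W cells and 484 ± 42.8 in control cells (log2 0.32, interval 0.12 to 0.51, adjusted p = 0.03). Higd1a, a mitochondrial protein gene of the hypoxia-responsive list, read 1794 ± 166 in R271W cells and 2249.7 ± 62.0 in control cells (log2 -0.33, interval -0.49 to -0.17, adjusted p = 0.00884), and its dimmer probe set overlapped (log2 -0.26, interval -0.55 to 0.040, adjusted p = 0.24). Mxi1, a MAX partner that opposes MYC, read 277 ± 16.8 in R271W cells and 221 ± 6.06 in control cells (log2 0.32, interval 0.10 to 0.54, adjusted p = 0.0444), and its dimmer probe set overlapped (log2 -0.017, interval -0.49 to 0.45, adjusted p = 0.97). Ndrg1, a stress-responsive gene, read 678 ± 49.5 in R271W cells and 558 ± 49.2 in control cells (log2 0.28, interval 0.089 to 0.48, adjusted p = 0.0481), and its dimmer probe set overlapped as well (log2 0.37, interval -0.027 to 0.76, adjusted p = 0.203).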
